A study of Mus musculus with 48 samples.

Results

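Chemokines are small secreted proteins that guide the movement of leukocytes and of migrating precursor cells, and this account follows 9 of their genes (Cxcl12, Cxcl1, Cxcl5, Cxcl10, Cxcl16, Ccl2, Ccl5, Ccl7 and Cx3cl1) across mouse striatal progenitor cells treated with 14 protective compounds. The members were taken by name from a table of 27281 genes, of which 18178 carry a symbol, and each name matched 1 gene. They were picked with earlier results of the same data known. The set is named for Cxcl12, so the values of that gene are given as a description without a test.

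Chemokines signal through receptors that couple to G proteins, and several bind heparan sulfate on the cell surface and are cut by proteases. Cxcl12 is the ligand of Cxcr4 and Ackr3 and guides migrating interneurons and progenitors in the developing brain. Ccl2 and Ccl7 attract monocytes through Ccr2, Ccl5 attracts T cells, Cxcl10 is an interferon-induced ligand of Cxcr3, and Cxcl1 attracts neutrophils through Cxcr2. Cxcl5 is a further ligand of Cxcr2. Cx3cl1 and Cxcl16 are made as transmembrane proteins that are shed by Adam10 and Adam17, and their receptors are Cx3cr1 and Cxcr6. Transcription of Ccl2, Ccl5, Cxcl1 and Cxcl10 is known to be raised by NF-kB.

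RNA-Seq had been made from 48 samples, 3 in each of 16 conditions. STHdhQ111 cells, conditionally immortalised striatal cells from mice homozygous for an expanded huntingtin allele, received vehicle or 1 of the 14 compounds, and STHdhQ7 cells, the wild-type line, received vehicle. All were kept for 24 hours in medium without serum. The highest doses were those of DOP (4-deoxypyridoxine, 4 mM) and sodium butyrate (1 mM), followed by cysteamine at 250 µM. Selisistat, loxapine, meclizine, cyproheptadine and the diacylglycerol kinase inhibitor II, called DKI here, were given at 10 µM and pizotifen at 5 µM. The nanomolar doses were 250 for fingolimod phosphate, 10 for trichostatin A, 1 for nortriptyline and 0.5 for both haloperidol and nicotinamide. Each genotype is 1 cell line, so genotype and line cannot be told apart, and in these bulk samples fewer cells of a kind and less RNA per cell cannot be told apart either. The 3 samples of a condition came from different collection days, apart from cyproheptadine and DKI, whose replicate 1 carries the day of replicate 3. The labels do not say that the samples are separate cultures, so p-values measure only the spread between these samples.

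Each sample was collected at a time slot within its day, and the slots differ between conditions. Selisistat, the STHdhQ7 cells and, apart from that replicate 1, cyproheptadine and DKI share the days and times of the STHdhQ111 vehicle samples. Meclizine, trichostatin A, pizotifen, haloperidol and fingolimod phosphate share another set of slots, and sodium butyrate, loxapine, DOP, cysteamine, nicotinamide and nortriptyline share a further one. For these later sets, a difference from vehicle and a difference between slots cannot be told apart. Values are therefore also given against haloperidol with fingolimod phosphate, or nicotinamide with nortriptyline, which were collected in the same slots. These comparators had themselves received compounds, so any effect of their own enters those differences.

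The values are the normalized abundances on a log2 scale that the authors deposited, and depth is unknown because no counts are given. Samples of a condition correlated at 0.996 to 0.999 across genes. Of 6 neural progenitor markers 2, Vim and Sox9, were expressed over all samples, Nes, Sox2 and Pax6 were low and Fabp7 was under the minimum. Nes averaged 10.95 in STHdhQ7 vehicle samples and 4.96 in STHdhQ111 vehicle samples, and Sox2 8.91 and 4.81. Pax6 was also higher in STHdhQ7. Sox9 went the other way, at 7.71 in STHdhQ7 and 9.55 in STHdhQ111 vehicle samples, and Vim stood close in both lines. Of 8 striatal markers only Foxp1 was expressed, and Drd1 was under the minimum. Of 7 fibroblast and mesenchymal markers 6 were expressed, and Lum was under the minimum. Col1a1 averaged 14.65 in STHdhQ7 and 14.63 in STHdhQ111 vehicle samples, whereas Col1a2 averaged 10.33 and 13.03, and Pdgfra 7.71 and 9.04. Col3a1, Pdgfrb and Dcn averaged 12.54, 10.74 and 7.25 in STHdhQ7 and 12.46, 10.77 and 7.32 in STHdhQ111 vehicle samples.

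Of the 9 members, 8 were expressed, read here as a mean over all samples of at least 6 on the log2 scale. Cxcl5 was the exception. Its values ran from -0.09 to 0.18, under the minimum of 1 for testing in every condition. The expressed members had means of 10.25 for Cxcl12, 10.79 for Ccl2, 10.11 for Ccl5, 9.57 for Cxcl10, 9.29 for Cx3cl1, 9.22 for Ccl7, 7.13 for Cxcl16 and 6.22 for Cxcl1. These abundances are not scaled to transcript length, so they do not rank the genes against each other. Around its condition means Cxcl10 had a residual SD of 0.29 and Ccl5 one of 0.26, whereas the median gene had 0.086.

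In the GRCm38 build and the GENCODE M21 annotation, Cxcl12 (ENSMUSG00000061353) lies on chromosome 6 at 117168535 to 117181367, on the plus strand. Chromosome 5 holds Cxcl5 at 90759360 to 90761624, Cxcl1 at 90891241 to 90893115 and, on the minus strand, Cxcl10 at 92346638 to 92348889. Chromosome 11 holds Cxcl16 at 70453983 to 70459984, Ccl2 at 82035571 to 82037453, Ccl7 at 82045712 to 82047525 and Ccl5 at 83525778 to 83530518. Ccl2 and Ccl7 are 8258 bp apart with 0 protein-coding genes between them. Cx3cl1 lies on chromosome 8 at 94772009 to 94782427. All 9 are protein-coding. Art3, on the strand opposite Cxcl10, stayed at or below -0.83 in every sample, and Zmynd15, opposite Cxcl16, at or below 2.83. Gm17268 overlaps Ccl2 on the other strand and was not used here. No 50-base stretch of an expressed member's transcripts was shared with another gene.

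Promoter sequence was in the RefSeq table (GRCm38.p6) for 4 members, and the 3 with the widest range between STHdhQ111 conditions are shown. Each line holds the 250 bases before the annotated start, 5′ to 3′ on the gene's strand, and capitals mark letter matches, on either strand, to GGGACTT or GGGAATT (the first letters of common NF-kB sites), AAGTGA (the hexamer repeated in interferon-response elements) or GGGCGG (a GC box).
Cxcl10 (chr5:92348890-92349139, minus strand): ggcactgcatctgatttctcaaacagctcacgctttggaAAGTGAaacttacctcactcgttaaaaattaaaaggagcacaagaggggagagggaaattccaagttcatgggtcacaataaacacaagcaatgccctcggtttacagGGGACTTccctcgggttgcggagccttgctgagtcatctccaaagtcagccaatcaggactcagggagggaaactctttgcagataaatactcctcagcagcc
Cxcl1 (chr5:90890995-90891244, plus strand): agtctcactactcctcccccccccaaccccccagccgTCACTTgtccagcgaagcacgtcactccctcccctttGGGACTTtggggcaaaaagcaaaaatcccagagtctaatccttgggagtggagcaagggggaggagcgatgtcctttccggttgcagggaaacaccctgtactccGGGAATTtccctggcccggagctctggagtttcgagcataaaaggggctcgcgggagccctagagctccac
Cxcl12 (chr6:117168285-117168534, plus strand): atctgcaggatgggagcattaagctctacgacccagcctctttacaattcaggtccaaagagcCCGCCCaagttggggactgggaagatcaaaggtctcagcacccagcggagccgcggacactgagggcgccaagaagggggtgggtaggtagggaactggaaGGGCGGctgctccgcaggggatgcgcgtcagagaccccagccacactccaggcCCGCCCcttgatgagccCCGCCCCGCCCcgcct

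The letters GGGACTT occurred upstream of Cxcl10 and Cxcl1 and in 4.65% of 32851 promoter windows of the same length. GGGAATT occurred upstream of Cxcl1 and in 3.08% of windows. The hexamer AAGTGA occurred upstream of Cxcl10 and, on the other strand, of Cxcl1, and in 13.6% of windows. The window of Cxcl12 held 5 GC boxes, of which the pair nearest the start overlap by 1 base, and 32.7% of windows held at least 1. The window of Cx3cl1 held 1 GC box and none of the other motifs. The motifs were chosen after the sequences had been seen, and a match describes letters only. Sites spelled with other letters are not marked.

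The first comparison asked how the wild-type line differs from the mutant line under vehicle. Of 7 members tested, 6 were lower in STHdhQ7 cells, where 26.6% of all genes were, and 1, Cx3cl1, was higher, where 29.2% were. All 7 were called, that is, had an adjusted p under 0.05 in limma, where 55.8% of all 13409 genes tested were called, so the lines differed in more genes than not.

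Ccl5, the T cell attractant, had 10.19, 10.13 and 10.42 in the STHdhQ111 vehicle samples and 8.38, 7.43 and 7.73 in STHdhQ7. It fell by 2.40 on the log2 scale (SE 0.19, adjusted p = 1.19e-13, limma), a level 5.30-fold lower. Cxcl10, the interferon-induced ligand, had 9.74, 9.39 and 9.63 in STHdhQ111 and 7.94, 6.91 and 7.36 in STHdhQ7. It fell by 2.18 (SE 0.21, adjusted p = 1.83e-11, limma). For both genes the highest STHdhQ7 sample, replicate 1, stood more than 1 log2 unit below the lowest STHdhQ111 sample.

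The neighbouring monocyte attractants moved the same way. Ccl2 had 10.62, 10.71 and 10.75 in STHdhQ111 and 9.94, 9.11 and 9.17 in STHdhQ7, a difference of -1.29 (SE 0.14, adjusted p = 3.96e-10, limma). Ccl7 had 9.06, 9.15 and 9.33 against 8.14, 7.53 and 7.51, a difference of -1.45 (SE 0.11, adjusted p = 6.24e-14, limma). In each gene replicate 1 of STHdhQ7 was the sample nearest STHdhQ111.

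Cxcl16 had 7.04, 6.87 and 7.06 in STHdhQ111 and 6.47, 6.04 and 6.14 in STHdhQ7, a difference of -0.77 (SE 0.10, adjusted p = 2.2e-08, limma). Cxcl1 had 5.85, 6.21 and 6.09 against 5.10, 5.49 and 5.35, a difference of -0.74 (SE 0.13, adjusted p = 3.74e-06, limma). Cx3cl1, the membrane-bound ligand, went the other way. Its values of 9.22, 9.15 and 9.12 in STHdhQ111 and 9.91, 10.39 and 10.33 in STHdhQ7 differed by 1.05 (SE 0.10, adjusted p = 4.39e-12, limma). In none of the 7 did the samples of the lines overlap, which held for 58.2% of all genes tested.

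Cxcl12 had 10.18, 10.26 and 10.32 in STHdhQ111 vehicle samples and 9.62, 10.53 and 10.28 in STHdhQ7. The STHdhQ7 samples lay on both sides of the STHdhQ111 samples, and the difference of -0.11 (95% interval -0.38 to 0.17) became 0.17 without STHdhQ7 replicate 1. Without that library the differences of Ccl5 and Ccl2 were -2.69 and -1.57.

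Ptprc, the common leukocyte antigen, moved with the line. Of the 8 rows of the leukocyte and microglia list, 3 were expressed (Ptprc, Cd68 and Cd14), Csf1r was low, and rows for Aif1, Itgam and P2ry12 were under the minimum. On a linear scale the list summed to between 321 and 480 in STHdhQ7 and between 1590 and 1892 in STHdhQ111 vehicle samples, with Ptprc at a mean of 7.86 against 10.59 on the log2 scale. The others stood closer, with Cd14 at 6.22 against 6.61, Cd68 at 6.13 against 6.16 and Csf1r at 1.96 against 1.93. Their part in the chemokine differences was not tested.

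**Figure D1:**
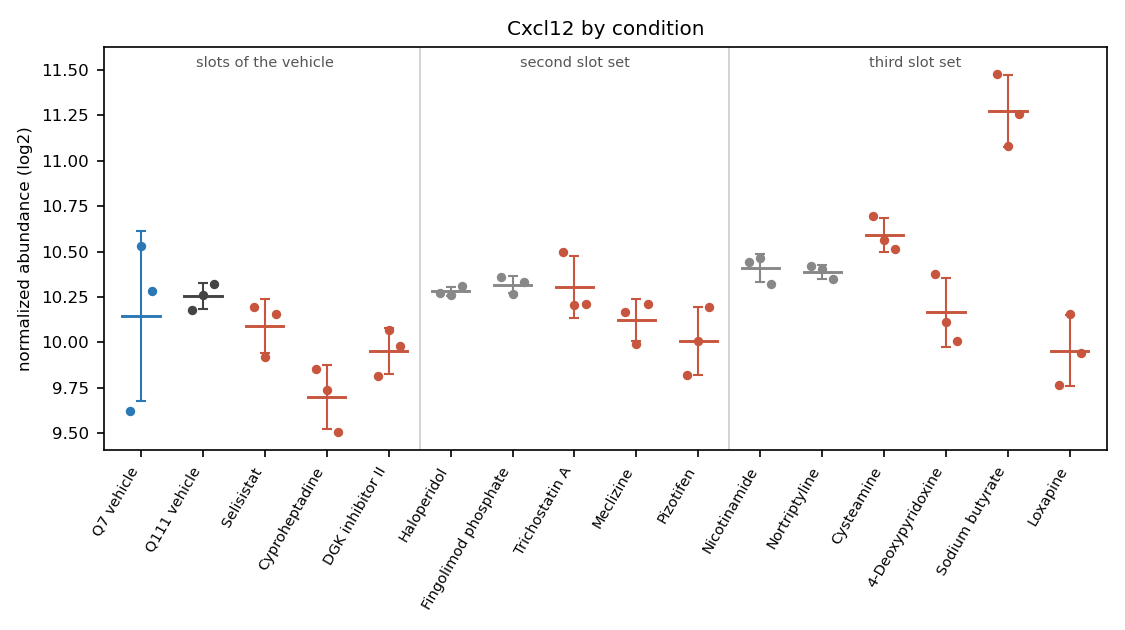
Normalized abundance of Cxcl12 (log2, vertical axis) in 16 conditions (horizontal axis), grouped by collection slots. Points are samples, short lines are means and bars are SD (n = 3); blue is STHdhQ7, dark grey STHdhQ111 vehicle, light grey the slot comparators and red the other compounds. Sodium butyrate stands highest at a mean of 11.27 and cyproheptadine lowest at 9.70.

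Cxcl12 was highest with sodium butyrate, a short-chain fatty acid that inhibits histone deacetylases. Its samples had 11.48, 11.08 and 11.26, all above every other sample of the series. The difference from vehicle was 1.02 (95% interval 0.74 to 1.30), a 2.03-fold level, and against nicotinamide and nortriptyline in the same slots it was 0.87 (0.64 to 1.11). Trichostatin A, another histone deacetylase inhibitor, was given at a nanomolar dose and differed by 0.05 (-0.22 to 0.33), with samples of 10.50, 10.21 and 10.21 that overlapped vehicle.

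Cysteamine came next, with Cxcl12 at 10.70, 10.57 and 10.51 and a difference of 0.34 from vehicle. Against the slot comparators, whose highest sample was 10.47, the difference was 0.19 (-0.05 to 0.43). Below it the means of nicotinamide (10.41), nortriptyline (10.39), fingolimod phosphate (10.32), trichostatin A (10.30), haloperidol (10.28), vehicle (10.25), DOP (10.16), STHdhQ7 (10.15), meclizine (10.12), selisistat (10.09), pizotifen (10.01), loxapine (9.95) and DKI (9.95) followed each other with overlapping samples between neighbours. Only sodium butyrate and cysteamine were each separated from the condition below.

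Cyproheptadine, a histamine and serotonin receptor antagonist, had the lowest Cxcl12, at 9.85, 9.74 and 9.50, a difference of -0.55 (-0.83 to -0.27). Its highest sample overlapped the lowest of DKI, which had 9.82, 10.07 and 9.98. Loxapine, an antipsychotic, had 9.77, 10.16 and 9.94, a difference of -0.30 from vehicle and of -0.45 from its slot comparators. Pizotifen, a serotonin antagonist used against migraine, had 9.82, 10.01 and 10.19 and differed by -0.25 and -0.29 in the same order.

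Over the means of the 15 STHdhQ111 conditions, with the collection day removed, the genes whose pattern was most like that of Cxcl12 among 9936 expressed genes were Peli2 (r = 0.95), Tsc22d1 (0.92), S100a10 (0.91), Prkcdbp (0.90) and Socs3 (0.90). Without sodium butyrate the same correlations over 14 conditions were 0.89, 0.84, 0.91, 0.81 and 0.81. The means share the vehicle samples' normalization and the butyrate condition, and the values are a description.

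**Figure D2:**
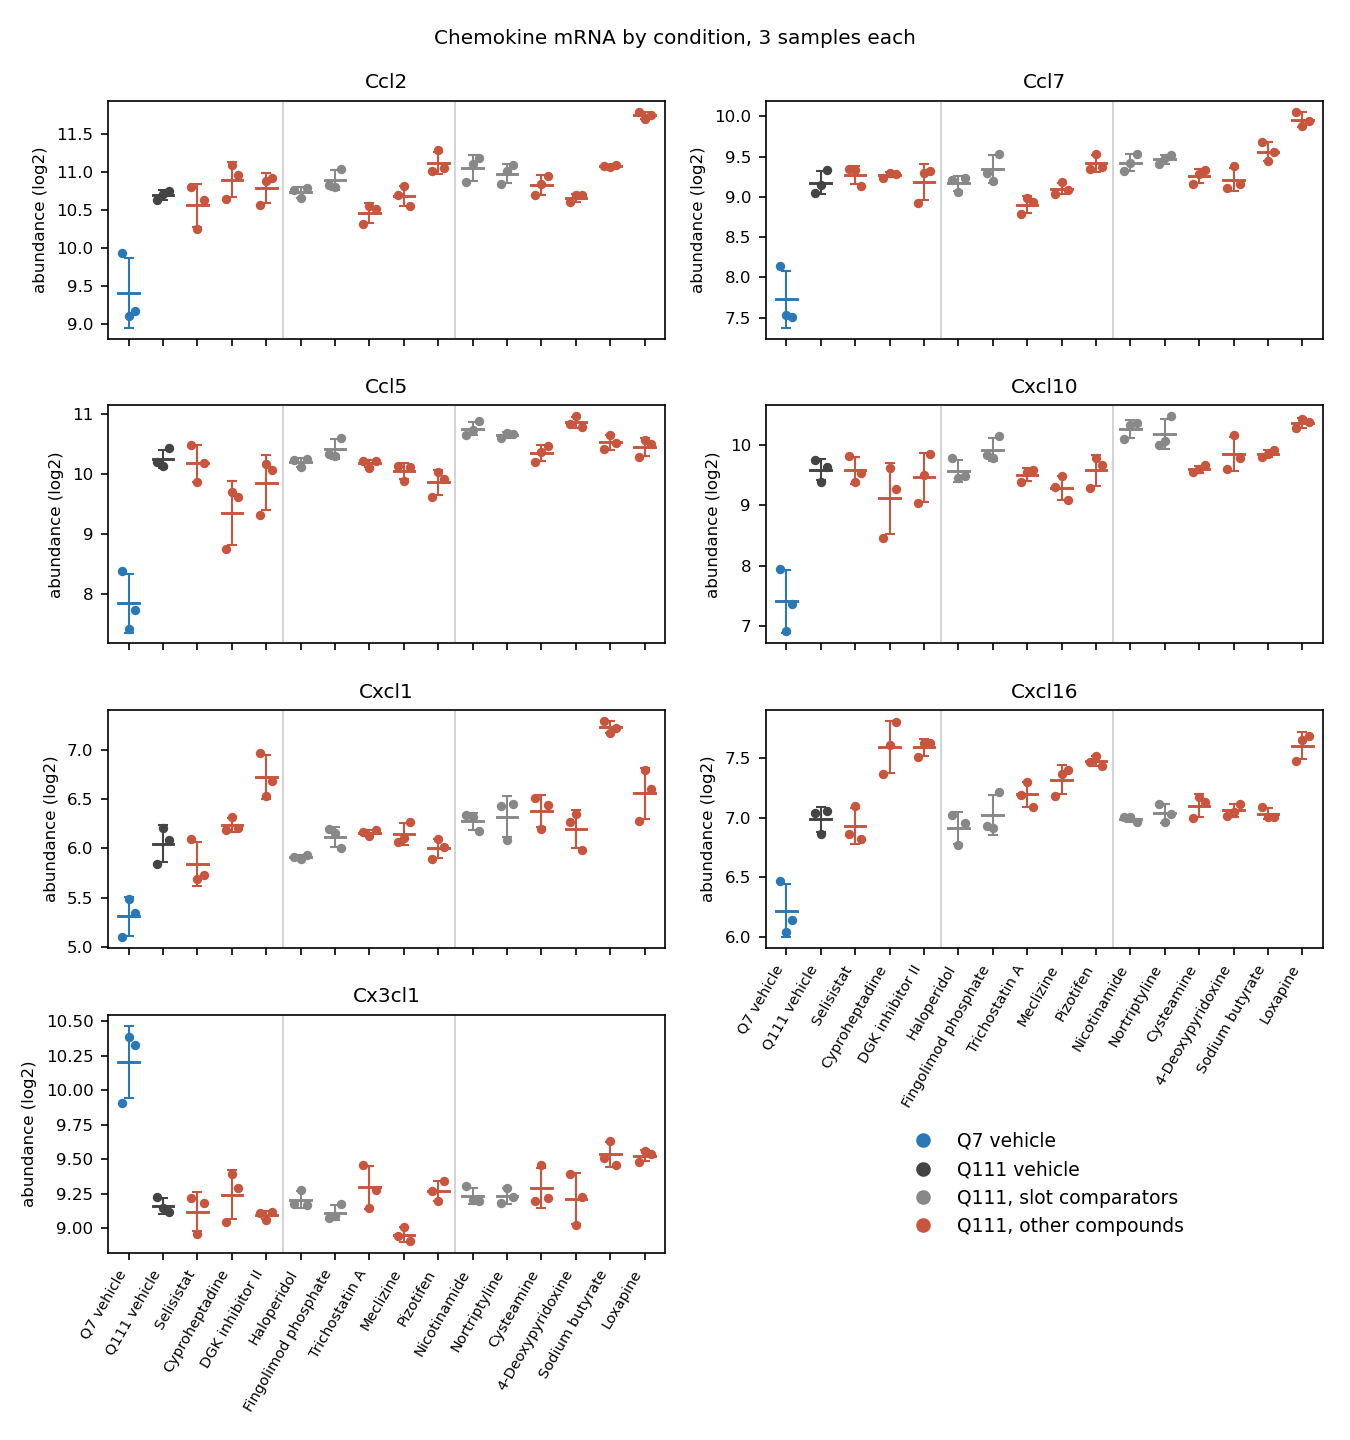
Normalized abundance (log2, vertical axes) of the 7 tested members in 16 conditions, with points for samples and lines and bars for mean and SD (n = 3). STHdhQ7 is lowest in 6 genes and highest in Cx3cl1, loxapine is highest in Ccl2, Ccl7, Cxcl10 and Cxcl16, and sodium butyrate in Cxcl1.

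Each compound was then compared with the same 3 STHdhQ111 vehicle samples, so the 14 comparisons are not independent of each other. Over the 7 members tested there were 19 calls of 98, where 17% of all such gene and compound pairs were called. Of the 19, 18 were higher and 1 was lower. The 17%, here and for the lists below, covers both directions, and its split by direction was not counted.

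Loxapine had the most, with 6 of 7 members called and all 6 higher, where 21.9% of all genes were called (10.1% called higher). Sodium butyrate had 4 called higher, against 37.5% of all genes called and 19.6% called higher. DKI had 2 higher, Cxcl1 and Cxcl16, against 42.3% called and 20.4% higher. Pizotifen had 2 higher, Ccl2 and Cxcl16, against 17.9% called and 8.86% higher. Cyproheptadine had 1 higher, Cxcl16, and 1 lower, Ccl5, against 35.6% called, 17.5% higher and 18.2% lower. Among compounds with a member called, DKI and cyproheptadine (2 of 7) and meclizine and DOP (1 of 7) had a share below that of all genes.

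Meclizine had 1 member called, Cxcl16, against 26.8% of all genes (13.1% higher). DOP had 1, Ccl5, against 20.1% (8.93% higher), and nicotinamide 1, Cxcl10, against 10.4% (2.82% higher). None was called by limma for trichostatin A, cysteamine, nortriptyline, selisistat, fingolimod phosphate or haloperidol, where 13.1%, 7.83%, 3.83%, 0.515%, 0.0597% and 0% of all genes were. At an unadjusted p under 0.05 the members counted were 2, 1, 5, 0, 0 and 0 of 7 in the same order. The median member difference was 0.62 for loxapine and 0.37 for sodium butyrate, where the median of all genes was at 0.00 and 0.02.

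**Figure D3:**
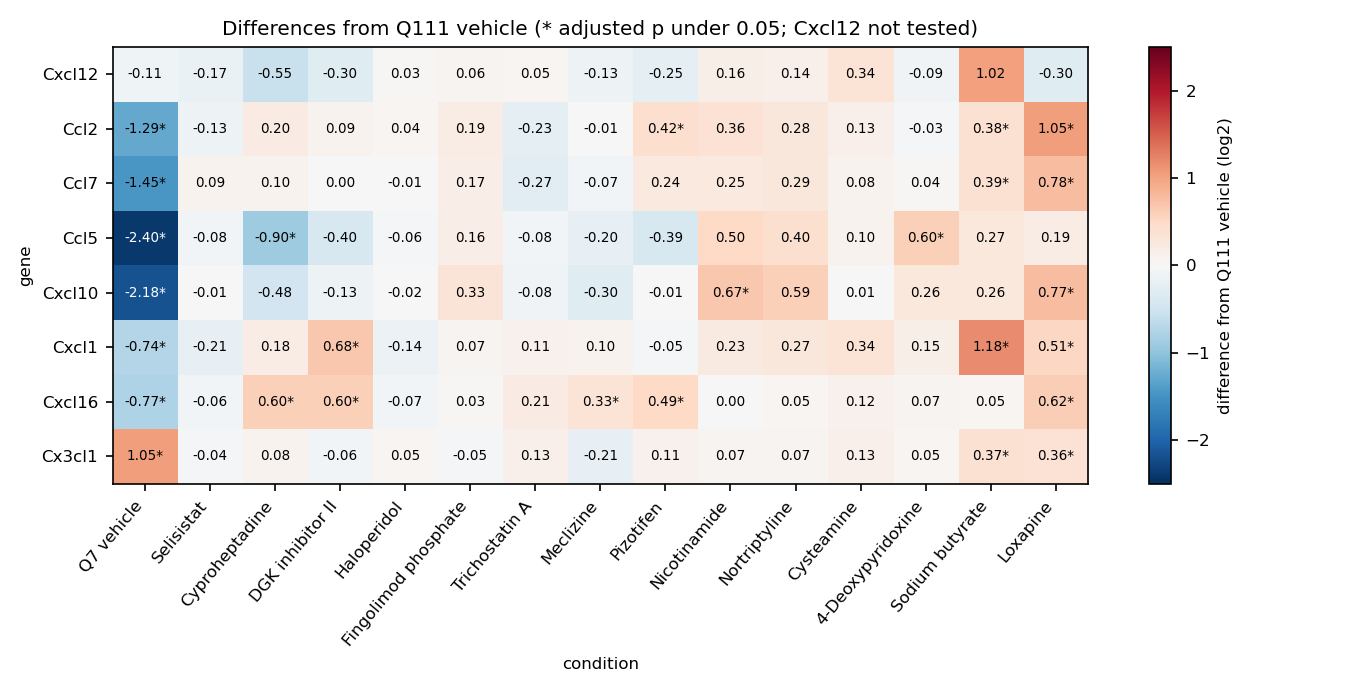
Difference of each condition from STHdhQ111 vehicle (log2, colour and printed value) for 8 expressed members, with asterisks for an adjusted p under 0.05 in limma and Cxcl12 not tested. The STHdhQ7 column is blue except for Cx3cl1, and the loxapine column is red in all rows except Cxcl12, at -0.30.

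Ccl2 and Ccl7, the monocyte attractants that lie side by side, had their highest levels with loxapine. Ccl2 had 11.79, 11.70 and 11.75 with loxapine, every sample above all others of the series, and rose by 1.05 (SE 0.14, adjusted p = 1.39e-06, limma), a 2.08-fold level. Ccl7 had 10.06, 9.88 and 9.94 and rose by 0.78 (SE 0.11, adjusted p = 5.57e-06, limma). Against the slot comparators the differences were 0.73 (adjusted p = 2.35e-05, limma) and 0.51 (adjusted p = 0.000183, limma).

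With sodium butyrate Ccl2 had 11.07, 11.06 and 11.09, above vehicle by 0.38 (SE 0.14, adjusted p = 0.0292, limma), and Ccl7 had 9.68, 9.44 and 9.56, above by 0.39 (SE 0.11, adjusted p = 0.00687, limma). Both overlapped nicotinamide and nortriptyline, which spanned 10.84 to 11.18 in Ccl2 and 9.33 to 9.53 in Ccl7, and the slot-matched differences of 0.06 (adjusted p = 0.747, limma) and 0.11 (adjusted p = 0.402, limma) were not called. The call of Ccl2 was lost when any 1 of 5 samples was left out, with adjusted p up to 0.102 in limma, and that of Ccl7 without replicate 1 of vehicle (adjusted p = 0.0566, limma) or of sodium butyrate (adjusted p = 0.054, limma).

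Pizotifen had Ccl2 at 11.02, 11.28 and 11.05, above vehicle by 0.42 (SE 0.14, adjusted p = 0.0317, limma). Against haloperidol and fingolimod phosphate the difference was 0.30 (adjusted p = 0.0797, limma), and the call against vehicle was lost without any 1 of 4 samples, with adjusted p up to 0.173 in limma. Trichostatin A had 10.31, 10.56 and 10.52 in Ccl2 and 8.79, 8.98 and 8.94 in Ccl7. These were not called against vehicle but were lower than the slot comparators by -0.35 (adjusted p = 0.0471, limma) and -0.35 (adjusted p = 0.0118, limma), and all lay below the comparators' samples.

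Ccl5 was lowest among STHdhQ111 conditions with cyproheptadine, at 8.74, 9.70 and 9.61, all below the vehicle samples. It fell by 0.90 (SE 0.19, adjusted p = 0.000354, limma). Replicate 1, the sample with the repeated collection day, was the lowest, and without it the difference was -0.59 (adjusted p = 0.0144, limma). Fitted on the 6 samples compared alone, the difference was again -0.90 but was not called (adjusted p = 0.0507, limma). Replicate 1 of DKI, which has the same label, was likewise low, at 9.32 beside 10.16 and 10.07. The DKI difference of -0.40 was not called (adjusted p = 0.0957, limma). It was -0.14 without replicate 1 (adjusted p = 0.642, limma) and -0.58 without replicate 2 (adjusted p = 0.0287, limma).

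DOP, an antimetabolite of vitamin B6, had Ccl5 at 10.82, 10.96 and 10.78, above vehicle by 0.60 (SE 0.19, adjusted p = 0.0221, limma). The nicotinamide and nortriptyline samples of the same slots spanned 10.59 to 10.87, and the slot-matched difference was 0.16 (adjusted p = 0.617, limma). The call against vehicle was lost without vehicle replicate 1, vehicle replicate 2 or DOP replicate 2, with adjusted p up to 0.0984 in limma.

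Cxcl10 had 10.28, 10.43 and 10.37 with loxapine, above vehicle by 0.77 (SE 0.21, adjusted p = 0.00683, limma). Nicotinamide, at a subnanomolar dose, had 10.08, 10.33 and 10.36, above by 0.67 (SE 0.21, adjusted p = 0.0345, limma), and nortriptyline had 10.00, 10.06 and 10.47, a difference of 0.59 that was not called (adjusted p = 0.104, limma). These 3 conditions share slots and overlap each other, and loxapine differed from the other 2 by 0.14 (adjusted p = 0.63, limma). The nicotinamide call was lost without any 1 of 4 samples, with adjusted p up to 0.166 in limma. With cyproheptadine Cxcl10 had 8.46, 9.61 and 9.26, a difference of -0.48 (adjusted p = 0.0766, limma), and again replicate 1 was the lowest. Without it the difference was -0.15 (adjusted p = 0.62, limma), and without replicate 2 it was -0.76 and called (adjusted p = 0.0084, limma).

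Cxcl1, the neutrophil attractant, had its highest level with sodium butyrate, at 7.30, 7.18 and 7.22, and every sample lay above all others of the series. It rose by 1.18 (SE 0.13, adjusted p = 2.81e-09, limma), a 2.27-fold level, and by 0.93 against the slot comparators (adjusted p = 2e-08, limma). DKI had 6.97, 6.54 and 6.68, above vehicle by 0.68 (SE 0.13, adjusted p = 3.49e-05, limma), and by 0.55 without its replicate 1 (adjusted p = 0.00136, limma). Loxapine had 6.28, 6.80 and 6.60, above by 0.51 (SE 0.13, adjusted p = 0.00288, limma). That difference was 0.26 against the slot comparators (adjusted p = 0.0797, limma) and 0.39 without loxapine replicate 2 (adjusted p = 0.0504, limma).

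Cxcl16 was the member called for the most compounds, 5 of 14, all higher. The vehicle samples had 7.04, 6.87 and 7.06. Loxapine had 7.48, 7.65 and 7.69 (difference 0.62, SE 0.10, adjusted p = 2.36e-05, limma), cyproheptadine 7.37, 7.61 and 7.80 (difference 0.60, SE 0.10, adjusted p = 1.04e-05, limma) and DKI 7.51, 7.63 and 7.63 (difference 0.60, SE 0.10, adjusted p = 6.62e-06, limma). Pizotifen had 7.47, 7.52 and 7.44, above by 0.49 (SE 0.10, adjusted p = 0.000556, limma), and meclizine, a histamine H1 receptor antagonist, had 7.18, 7.37 and 7.41, above by 0.33 (SE 0.10, adjusted p = 0.011, limma). No sample of these 5 conditions overlapped vehicle, which held for 41.7%, 45.9%, 51.5%, 36.1% and 40.5% of all genes in the same order.

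The Cxcl16 differences were much the same within slots, at 0.59 for loxapine (adjusted p = 3.14e-06, limma), 0.51 for pizotifen (adjusted p = 4.41e-05, limma) and 0.35 for meclizine (adjusted p = 0.00179, limma). The lowest meclizine sample was then below the highest comparator sample, 7.22. Meclizine lost its call against vehicle without vehicle replicate 2 (adjusted p = 0.0776, limma) or meclizine replicate 3 (adjusted p = 0.061, limma). For sodium butyrate, which was highest in Cxcl1 and Cxcl12, Cxcl16 averaged 7.03 ± 0.05 (SD, n = 3), a difference of 0.05 from vehicle.

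Cx3cl1 was called for sodium butyrate and loxapine. Its samples were 9.51, 9.64 and 9.46 with butyrate, above vehicle by 0.37 (SE 0.10, adjusted p = 0.00204, limma), and 9.48, 9.56 and 9.54 with loxapine, above by 0.36 (SE 0.10, adjusted p = 0.00511, limma). Both held within slots, at 0.30 (adjusted p = 0.005, limma) and 0.29 (adjusted p = 0.00888, limma). Meclizine had the lowest Cx3cl1, at 8.95, 9.01 and 8.90, all below vehicle, with a difference of -0.21 that was not called. Cxcl5 stayed under the minimum with every compound, and its highest condition mean, with sodium butyrate, was 0.10.

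Cyproheptadine and pizotifen are related tricyclic compounds, pizotifen carrying a thiophene in place of a benzene ring. They were given at 10 and 5 µM and in different slots, so their differences from vehicle stand side by side without a test. These were 0.60 and 0.49 for Cxcl16, -0.90 and -0.39 for Ccl5, 0.20 and 0.42 for Ccl2, and -0.48 and -0.01 for Cxcl10.

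**Figure D4:**
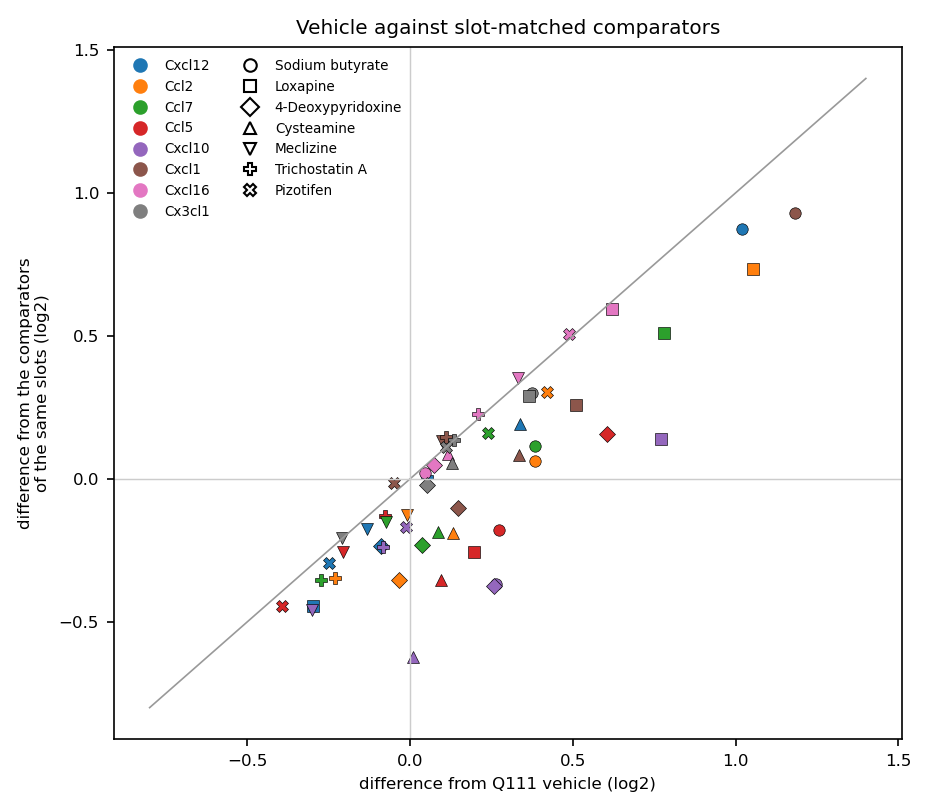
Difference of 7 compounds from STHdhQ111 vehicle (log2, horizontal axis) against the difference from the comparators of the same slots (log2, vertical axis), with 1 point for each of 8 members and compound and a line of equality. Most points lie below the line, with Cxcl16 near it and Cxcl10 with loxapine at 0.77 and 0.14.

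For the 7 compounds that have slot comparators, 14 of 49 tested pairs were called against vehicle and 10 against the comparators. Both comparisons called 8 in the same direction. The 6 called only against vehicle were Cxcl1 and Cxcl10 for loxapine, Ccl2 and Ccl7 for sodium butyrate, Ccl2 for pizotifen and Ccl5 for DOP. The 2 called only against the comparators were Ccl2 and Ccl7 for trichostatin A. A further 11 pairs, called in neither, changed sign, among them Cxcl10 with sodium butyrate (0.26 against vehicle and -0.37 against the comparators) and Ccl5 with loxapine (0.19 and -0.26). The shares of all genes called against the comparators were 22.8% for loxapine, 30.8% for sodium butyrate, 17.3% for pizotifen, 28.8% for meclizine, 14.4% for trichostatin A, 10.6% for DOP and 0.119% for cysteamine.

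**Figure D5:**
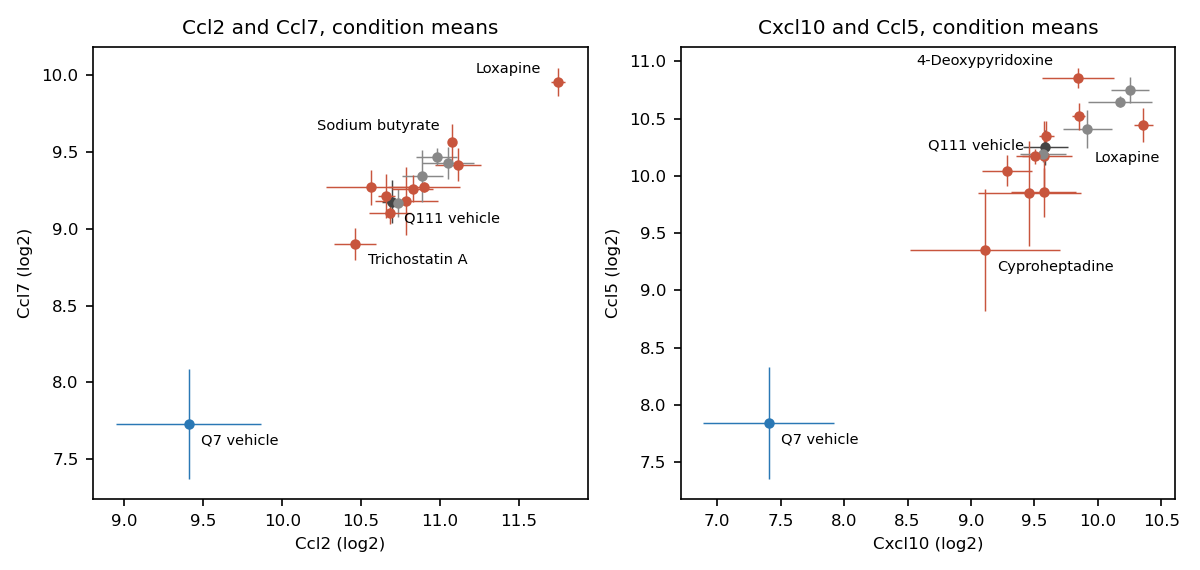
Condition means of Ccl7 against Ccl2 and of Ccl5 against Cxcl10 (both axes log2), with SD bars (n = 3). STHdhQ7 lies low on both axes in both panels, and loxapine is the highest point in Ccl2, Ccl7 and Cxcl10.

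Across the means of the 15 STHdhQ111 conditions, Ccl2 and Ccl7 had a Pearson correlation of 0.95 and Cxcl10 and Ccl5 one of 0.80. Cxcl16 and Ccl5 stood at -0.62, Cxcl12 and Cxcl16 at -0.59, and Cxcl12 and Ccl2 at 0.00. Conditions collected in the same slots share them, so the points are not independent and the values are a description.

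Among 29 further chemokine genes 19 were in the table, 8 reached the minimum and 1, Ccl25, was expressed, with 0 calls. Over the 14 compounds they gave 12 calls of 112 pairs (10.7%), all higher, where 17% of all gene and compound pairs were called in either direction. Ppbp, a platelet-derived neutrophil attractant with a low mean of 4.24, rose by 1.57 with sodium butyrate (SE 0.13, adjusted p = 5.47e-12, limma). Ccl9 was called higher for 5 compounds, with 0.55 for sodium butyrate (adjusted p = 4.28e-06, limma) and 0.54 for loxapine (adjusted p = 1.89e-05, limma). Against the slot comparators these were 0.26 (adjusted p = 0.0082, limma) and 0.25 (adjusted p = 0.0134, limma), and its calls for DOP and cysteamine were not made (adjusted p = 0.791 and 0.511, limma), whereas for Ppbp with butyrate the difference was 1.46 (adjusted p = 6.03e-13, limma). Cxcl11, another interferon-induced ligand, was called higher against vehicle for loxapine, DOP and nicotinamide, which share slots. Against the comparators of those slots the loxapine and DOP differences in Cxcl11 were each 0.03 (adjusted p = 0.9 and 0.906, limma). Ccl17 was called higher for cyproheptadine and loxapine.

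Of 23 receptor genes, 18 were in the table, 5 were tested and 1, Ackr3, was expressed. Ackr3, the scavenging receptor of Cxcl12, averaged 7.74 in STHdhQ111 vehicle and 6.73 in STHdhQ7, a difference of -1.01 (SE 0.09, adjusted p = 6.06e-12, limma). Against vehicle it rose with sodium butyrate by 0.50 (adjusted p = 6.24e-05, limma), loxapine by 0.38 (adjusted p = 0.00266, limma), DOP by 0.33 (adjusted p = 0.00999, limma) and cyproheptadine by 0.28 (adjusted p = 0.0177, limma). Against the slot comparators the Ackr3 differences were 0.26 for sodium butyrate (adjusted p = 0.0131, limma), 0.15 for loxapine (adjusted p = 0.203, limma) and 0.09 for DOP (adjusted p = 0.525, limma). Cxcr4 was low, with a mean of 1.78. Ccr2, Cx3cr1 and Cxcr6, the receptors of Ccl2, Cx3cl1 and Cxcl16, averaged -0.66, -1.81 and 0.99, under the minimum. The list gave 8 calls of 70 pairs with compounds (11.4%), all higher, where 17% of all such pairs were called in either direction.

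Of 18 NF-kB factors and targets, 17 were tested and gave 49 calls of 238 (20.6%), with 25 higher and 24 lower. Over all genes 17% of the gene and compound pairs were called in either direction. Loxapine had 9 higher, where 10.1% of all genes were, and 1 lower, where 11.8% were, and meclizine had 6 lower, where 13.6% were. Nfkbia, the inhibitor that NF-kB induces, rose by 0.54 with sodium butyrate (adjusted p = 3.25e-08, limma) and 0.28 with loxapine (adjusted p = 0.00129, limma) and fell by 0.71 in STHdhQ7 (adjusted p = 2.28e-12, limma). Against the slot comparators Nfkbia differed by 0.36 with sodium butyrate (adjusted p = 3.97e-06, limma) and by 0.10 with loxapine (adjusted p = 0.176, limma). Nfkb1 was called lower for 8 compounds and in STHdhQ7, and of these loxapine was not called against the slot comparators (adjusted p = 0.115, limma). Lif and Vcam1, a cytokine and an adhesion molecule, were called in 5 and 4 compounds, in both directions. The higher Vcam1 calls for sodium butyrate and DOP were not made against the slot comparators (adjusted p = 0.682 and 0.282, limma).

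Interferon-stimulated genes were tested for 16 of 16. All 16 were lower in STHdhQ7, where 26.6% of all genes were, 15 were lower with cyproheptadine (18.2% of all genes) and 12 with DKI (21.9%). Without replicate 1 of the compound the counts were 11 with cyproheptadine and 8 with DKI. For this list limma called 0 with loxapine (3 at an unadjusted p under 0.05), where 21.9% of all genes were called. Over the compounds 43 of 224 pairs were called (19.2%), 34 of them lower, where 17% of the pairs of all genes were called in either direction. Ifit3 fell by 2.30 in STHdhQ7 (adjusted p = 8.67e-14, limma), by 1.21 with cyproheptadine (adjusted p = 2.5e-06, limma) and by 0.90 with DKI (adjusted p = 0.000119, limma). Psmb8, Psmb9 and Irf1 were also called lower in STHdhQ7 and with cyproheptadine. Psmb8 was called higher in 2 compounds and Psmb9 in 3, among them DOP (0.60 and 0.89, adjusted p = 0.000341 and 0.000126, limma). Against the slot comparators neither DOP call was made (adjusted p = 0.178 and 0.114, limma). Pizotifen, with Ccl5 0.39 below vehicle without a call, close to the 0.40 of DKI, had 1 of the 16 called lower. For pizotifen 17.9% of all genes were called in either direction, and 8.86% of all genes were called higher. Against haloperidol and fingolimod phosphate it had Ifit3, Psmb8, Psmb9 and Irf1 called lower (adjusted p = 0.0288, 0.00791, 0.0184 and 0.0208, limma). Against nicotinamide and nortriptyline, loxapine had Psmb8 and Psmb9 called lower (adjusted p = 0.0225 and 0.0161, limma) and Ifit3 and Irf1 not called.

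Of 13 genes for proteases, matrix and signalling proteins that act on chemokines, the processing and binding list, 12 were tested. The 12 gave 43 calls of 168 (25.6%), 13 higher and 30 lower. Over all genes 17% of such pairs were called in either direction. Of the 43, the signalling genes Gnai2, Arrb2 and Rgs16 gave 5, 2 and 1. Gpc1, a heparan sulfate proteoglycan, rose in STHdhQ7 by 1.21 (adjusted p = 1.43e-13, limma) and in 6 compounds, the most with cyproheptadine, by 0.63 (adjusted p = 3.99e-06, limma). Sdc2 was called lower in 4 compounds, and Sdc3 was called in both directions. Adam10, the sheddase of Cx3cl1 and Cxcl16, was called lower in 5 compounds, sodium butyrate, cyproheptadine, loxapine, DKI and nicotinamide. Against the slot comparators, of which nicotinamide is 1, Adam10 differed by 0.03 with both sodium butyrate and loxapine (adjusted p = 0.713 and 0.718, limma). Gpc1 was called higher against the slot comparators with loxapine, meclizine and pizotifen but not with cysteamine (0.36, adjusted p = 0.0897, limma).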

How the data were processed

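RNA-Seq was analysed in 48 samples, with conditions, doses, days and times taken from the labels. The authors trimmed single-end reads with Trimmomatic 0.36 and quantified them with RSEM on the GRCm38 transcriptome, and their own differential testing used DESeq2. The deposited table holds normalized abundances that were read as log2 values, from -2.34 to 18.62. The transformation is not given in the sources used here, genes with low values hardly vary in it, and no counts could be obtained, so depth is unknown and no counting error is given. The libraries were made with a kit that marks strand, but the strand setting of the counting is not given in the sources used here.

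With limma 3.58.1 in R 4.3.3, 1 linear model per gene with 16 conditions and the collection day (30 residual degrees of freedom, variance trend) was fitted to 13409 genes with a symbol and a mean of at least 1. P-values were two-sided and adjusted by the Benjamini-Hochberg method over all genes tested in a comparison, with 0.05 as the threshold for a call. Intervals are 95% intervals from the same fit. Folds are 2 to the power of the difference. The fitting was tested on simulated data. Sequences came from RefSeq. Figures were drawn with matplotlib 3.10.9.

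The members, the gene lists and the motifs were chosen with earlier results of these data known. Longer degenerate forms of the NF-kB and interferon motifs were searched in the same promoters first and were replaced by the short forms reported, because their letters could not be printed. Of each list, at most 4 genes called in the most comparisons were named, and genes of interest as receptors or under the minimum were named after their values were seen. The replicate number matches the collection day apart from 2 samples, and deviations of samples with the same number had a mean correlation of -0.049. Metabolite, protein and ChIP-Seq data were not analysed here.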

Additional observations from a re-analysis of the deposited data

How the results depend on the processing

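Depth is unknown, the collection slots are tied to the compounds, and 3 samples per condition share 1 vehicle group, and calls such as Ccl2 with sodium butyrate (0.38, SE 0.14) or Cxcl10 with nicotinamide (0.67, SE 0.21) are near the threshold. The alternatives were another minimum, no minimum, no collection day, the replicate block, collection time, the 6 samples compared alone, rescaling by the median, no variance trend, the slot comparators and leaving out each replicate. Among the members, no difference called under either setting changed sign. Some named genes of the lists did so with the slot comparators, such as Adam10 with sodium butyrate and loxapine and Ccl9 with DOP. Of uncalled member differences, 11 changed sign with the slot comparators and 1 with only the 6 samples compared. When 1 replicate was left out 49 did, all of these 49 at most 0.13 from vehicle. Cxcl12 in STHdhQ7, given no test, is among the 49 (-0.11 to 0.17). Cxcl10 with sodium butyrate was called higher with only the 6 samples compared (0.26, adjusted p = 0.0139, limma) and was -0.37 against the slot comparators (adjusted p = 0.122, limma). The replicate block in place of the collection day gave 26 member calls over 15 comparisons, the same number as the model used in the text, and since deviations of samples with the same number correlated at -0.049 the numbers were not taken as pairs. With only the 6 samples compared, the member calls were 44 in place of 26, those of the compounds 37 in place of 19 and the interferon-stimulated calls 112 in place of 59. In that fit Ccl5 with cyproheptadine was not called (-0.90, adjusted p = 0.0507, limma). With a mean of at least 6, the other chemokines had 1 call in place of 15 and the receptors 6 in place of 10, since fewer genes were tested, and the receptors also had 6 with the slot comparators, where the cause was not tested. Leaving out 1 replicate gave 21 to 31 member calls, 7 to 7 for STHdhQ7, 14 to 24 for the compounds, 10 to 18 for the other chemokines, 6 to 12 for the receptors, 49 to 62 for the NF-kB list, 47 to 67 for the interferon list and 34 to 52 for processing and binding. Vehicle replicate 1 gave the lowest member count and STHdhQ7 replicate 1 the highest. Cxcl10 with cyproheptadine ran from -0.76 without replicate 2 to -0.15 without replicate 1, and Ccl5 with DKI from -0.58 to -0.14 in the same order. Of the values of single members and settings, 30 lost a call and 23 gained one. Another 1667 kept their call and its direction or, uncalled in both fits, stayed within the SD of the groups compared. Some of these uncalled values changed sign. The remaining 16, also uncalled, moved by more than that SD.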
